A study of Mus musculus with 6 samples.

Results

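The 3 libraries described here were made from wild-type (WT) mouse hepatocytes and were picked by the genotype in their titles, from 6 libraries in the series. The other 3 libraries carry AEG-1-C75S, a changed form of AEG-1, the protein encoded by *Mtdh*, and no comparison between the genotypes was made. WT mice were offspring of AEG-1-C75S heterozygote crosses, were labelled with the genotype WT, were adults aged 6 to 8 weeks and bear the treatment label Control. RNA was taken 48 h after the hepatocytes had been isolated. The medium, the plating and the sex of the animals are not given in the sources used here, nor do the labels say if each library stems from its own mouse, so n is the number of libraries and the spread between them may be technical. Freshly isolated cells and intact liver were not analysed here. Whether a hepatocyte function was kept or lost over the 48 h could therefore not be tested, and the levels below rank transcripts within these libraries.

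Hepatocytes are the main cells of the liver. They make most plasma proteins, which are translated on the endoplasmic reticulum (ER), folded by ER chaperones and exported through the Golgi, and they turn ammonia into urea, store and release glucose, oxidise and build lipids, make bile acids and detoxify foreign compounds. In the intact lobule these tasks are divided between cells near the portal vein and cells near the central vein. Isolated hepatocytes are known to lose part of this programme in simple culture and to build up actin, tubulin and matrix transcripts, which is why these gene groups were examined beside the metabolic ones.

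The libraries held 20905998, 20700951 and 20900606 counts on genes. One column of counts per strand was deposited, and the reverse-strand total exceeded the forward-strand total by 33.2 to 33.9 times, so reverse-strand counts were used. Levels are given as counts per 1000000 gene counts (CPM) or, for any comparison between genes, as transcripts per 1000000 (TPM), for which counts were divided by the merged exon length of the gene. A gene counted as detected at 3 or more counts in every library, a floor of 0.143 to 0.145 CPM, and 13816 of 55487 genes were. The median detected gene stood at 12.999 TPM, with quartiles of 2.77 and 37.1 TPM, and each gene group below is to be read against that level. Reads with several equally good positions, 18.0% to 18.4% of each library, were counted to no gene, so genes with near-identical copies are underestimated.

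Genes of hepatocyte function were read first, together with a keratin pair of simple epithelia and the mesenchymal *Vim*. Albumin (*Alb*, ENSMUSG00000029368, chromosome 5, 90460897 to 90476602, plus strand, GRCm38), the main protein of plasma, reached 80153, 88407 and 85746 TPM and ranked first in every library. *Apoa1* (chromosome 9, 46228580 to 46230466, plus strand), the main protein of high-density lipoprotein, reached 7283, 7626 and 7739.7 TPM. The thyroid hormone and retinol carrier transthyretin (*Ttr*) reached 3291, 3362 and 3299.8 TPM. The mitochondrial enzyme that opens the urea cycle, *Cps1* (chromosome 1, 67123026 to 67231259, plus strand), was measured at 1298, 1519 and 1595 TPM, lowest in replicate 1. The simple-epithelial keratin pair was also abundant, with *Krt18* at 4327 ± 198 TPM and *Krt8* at 2765 ± 50.7 TPM (mean ± SD, n = 3 for all such values). *Vim* (chromosome 2, 13573927 to 13582826, plus strand), an intermediate filament gene of mesenchymal cells, was measured at 274, 259 and 239 TPM, above 97.2% of detected genes. All 7 genes lay in the top 10% of detected genes, the mesenchymal *Vim* included.

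Promoter sequences of 3 abundant plasma protein genes are shown because plasma protein genes held 17.3% of counts and because these windows hold the word GTTAAT, which was searched in all promoter windows. They were chosen after the matches had been seen. Each run gives the 120 bases before the RefSeq start in GRCm38.p6, in the direction of transcription, with capitals marking GTTAAT or CCAAT, or their reverse complements ATTAAC and ATTGG. The RefSeq starts of *Gc* and *Fgb* coincide with the GENCODE start, and that of *Alb* lies 27 bases upstream of it.
Alb, chr5:90460750-90460869, plus strand: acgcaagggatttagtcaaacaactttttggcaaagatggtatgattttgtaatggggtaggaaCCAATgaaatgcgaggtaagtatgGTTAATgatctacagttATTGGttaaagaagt
Gc, chr5:89457899-89458018, minus strand: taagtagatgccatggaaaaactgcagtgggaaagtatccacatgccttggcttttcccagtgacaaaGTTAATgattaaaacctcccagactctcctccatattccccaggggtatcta
Fgb, chr3:83049864-83049983, minus strand: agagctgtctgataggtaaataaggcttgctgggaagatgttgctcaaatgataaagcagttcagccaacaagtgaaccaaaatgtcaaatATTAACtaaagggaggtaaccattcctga
GTTAAT begins 32 bases before the start in *Alb* and 52 bases before it in *Gc*, while *Fgb* carries its reverse complement from 29 bases before the start. *Alb* also holds CCAAT, the word of the CCAAT box, on each strand.

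Windows of 250 bases before the start were found for 101 of the 126 plasma protein genes, among 20542 RefSeq windows matched. Both strands were searched for each word, and a base could count for more than 1 word. GTTAAT was present in 28 of the 101 plasma protein windows (27.7%) and in 6.02% of all windows. Detected protein-coding genes outside the 100 highest in TPM, plasma protein genes among them, held it in 3.97% of windows. The 100 highest in TPM that were not plasma protein genes held it in 4%. Windows of protein-coding genes that were not detected, which have a median GC content of 49.2% against 49.6% for the plasma protein windows, held it in 8.20%. TGTTTGC, a word of the FOXA site, was found in 16.8% of plasma protein windows and 4.10% of all. TATAAA, the TATA box word, was found in 16.8% of plasma protein windows and 12.2% of all windows. Detected genes outside the 100 highest in TPM held it in 6.42%, and the 100 highest that were not plasma protein genes in 16%. Undetected genes held it in 19.5% of windows, above the plasma protein share. CCAAT was found in 29.7% of plasma protein windows and 35.2% of all. A match describes the letters only and shows no binding.

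A few transcripts held much of the sequencing. *Alb* took 6.36%, 6.95% and 6.73% of gene counts in replicates 1, 2 and 3. The 10 most abundant genes of a library held 16.7% ± 0.243 of its counts and the 100 most abundant 33.7% ± 0.311 (SD, n = 3). Between 30 and 32 genes were enough to reach 25% of counts, 471 to 494 to reach 50%, and 4672 to 4754 to reach 90%. The 20 genes highest in CPM comprised 9 genes of plasma proteins, 6 encoded in mitochondrial DNA, the matrix protein gene *Fn1*, the cytochrome P450 gene *Cyp3a11*, the glutathione synthesis gene *Gclc*, the elongation factor gene *Eef2* and the transglutaminase gene *Tgm2*. After *Alb*, the order by CPM began with *mt-Co1* at 21888 ± 281 CPM, a subunit of cytochrome c oxidase, *Selenop* at 14074 ± 162 CPM, a plasma carrier of selenium, and *mt-Nd5* at 11060.1 ± 412 CPM, a subunit of complex I. As counted, each of the 3 lay well under *Alb* in every library, although copies make the levels of *mt-Co1* and *mt-Nd5* lower limits.

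**Figure D1:**
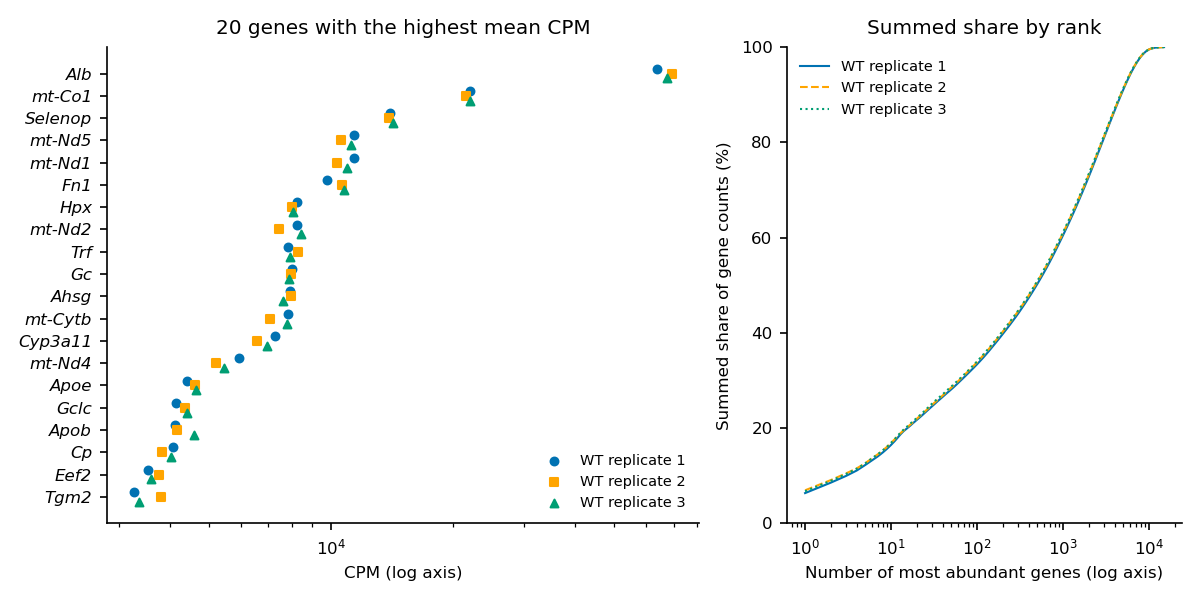
The left panel plots CPM on a log axis for the 20 genes with the highest mean, 1 point per WT library, and the right panel plots the summed share of gene counts (%) against the number of most abundant genes. The 3 libraries almost coincide, with *Alb* at 6.36% to 6.95% of counts and 100 genes holding about 33.7%.

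Division by exon length changed the order but not the kind of gene at the top. Of the 20 genes highest in TPM, 13 were also among the 20 highest in CPM, and 10 encoded plasma proteins and 6 mitochondrial subunits. *Hpx*, which binds free haem, reached 16264, 15941 and 16021 TPM. *Gc*, the vitamin D binding protein, reached 12828, 12889 and 12747 TPM, and *Ahsg*, the calcification inhibitor fetuin-A, 10647, 10835 and 10367 TPM. In each of these the 3 libraries lay within a few per cent of each other. The long *Fn1* transcript fell from rank 6 in CPM to rank 38 in TPM, while the short *Apoa1*, *B2m* and *Rplp1* transcripts entered the top 20. The level of *Rplp1* is a lower limit, as 99.4% of its transcript is covered by copies. Mitochondrially encoded genes together held 6.85%, 6.41% and 6.78% of counts and 15.4% ± 0.545 of TPM. Copies cover 100% of the *mt-Co1* transcript, 63.6% of *mt-Nd4*, 52.3% of *mt-Nd5* and 49.1% of *mt-Nd2*. The levels of these genes and the mitochondrial share are therefore lower limits. The major urinary protein genes, 22 pheromone carriers with near-identical copies, held 0.399% ± 0.00321 of counts, with *Mup3* at 7379 ± 132 TPM alone in the top 20, and their level is uncertain because shared reads were not counted.

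Among the 100 genes highest in TPM, 30 belonged to the plasma protein groups described below and 28 to no gene group examined. Those 28, named after their values were seen, included *B2m* of the class I histocompatibility complex at 6040.4 ± 295 TPM, *Clu*, an extracellular chaperone, at 2912 ± 125 TPM, *Cdo1*, which oxidises cysteine, at 2510.3 ± 108 TPM, and *Adh1*, an alcohol dehydrogenase, at 1529 ± 107 TPM. *Sprr1a*, known as a cornified envelope protein of squamous epithelium, ranked 23rd with 4341, 4341 and 3883 TPM. *Tgm2* was measured at 2092, 2469.7 and 2173 TPM, and *Errfi1*, an inhibitor of the epidermal growth factor receptor, at 1409 ± 18.1 TPM.

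Genes of secreted plasma proteins, 126 in 7 groups, together held 16.9%, 17.6% and 17.4% of gene counts in replicates 1, 2 and 3, and 23.0% ± 0.568 of TPM. The groups are not complete, as *Fn1* with 1.04% of counts and *Clu* with 0.337% lie outside them. Of the 126 genes 125 were detected. The exception was the hepcidin copy *Hamp2*, with 0, 2 and 0 counts. Plasma carriers made up most of the load, with 12.9% ± 0.286 of counts, and *Alb* held 49.5% of the summed TPM of that group. Apolipoproteins followed with 1.82% ± 0.0610, serpins with 0.715% ± 0.0306, complement and lectins with 0.672% ± 0.0269 and coagulation factors with 0.632% ± 0.00904. Hormones and hepatokines held 0.316% ± 0.0147 and acute phase proteins 0.287% ± 0.0101. The summed share of the 7 groups was lowest in replicate 1, the library in which *Alb* was also lowest. Single groups differed, with coagulation factors lowest in replicate 2 and serpins and acute phase proteins lowest in replicate 3.

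**Figure D2:**
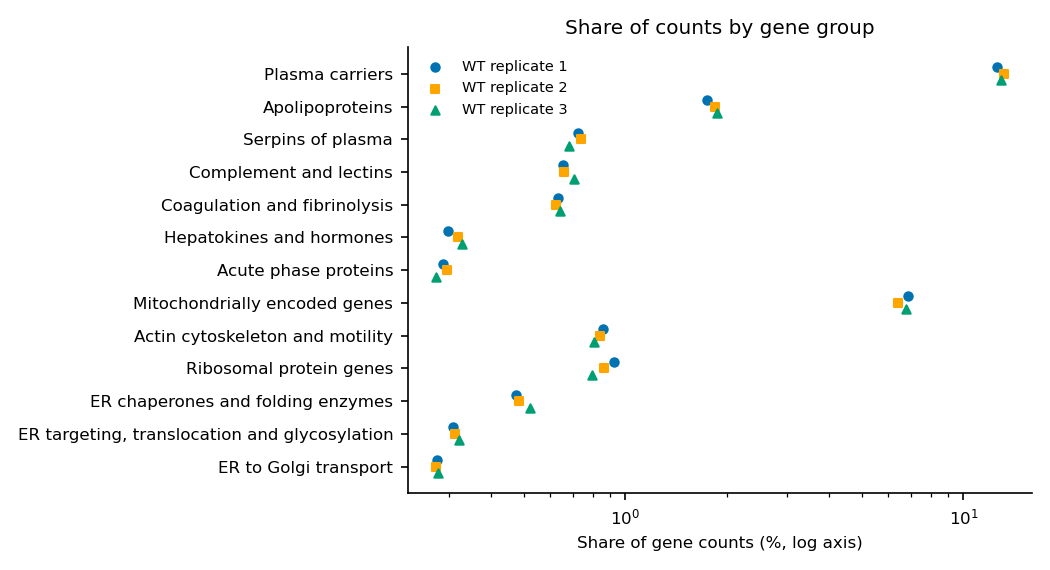
Share of gene counts (%, log axis) held by groups of secreted protein genes, of mitochondrial, actin and ribosomal protein genes and of the secretory machinery, with 1 point per WT library. Plasma carriers lie between 12.6% and 13.2%, above every other group, while the 3 groups of ER and Golgi machinery lie between 0.275% and 0.523%.

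The 26 plasma carriers had a median of 1051 TPM, and 19 of them were in the top 10% of detected genes. Below *Alb*, *Hpx*, *Selenop*, *Gc* and *Ahsg* came the iron carrier *Trf* at 7189 ± 247 TPM. The level of *Trf* is a lower limit, since 63.5% of its exon bases are shared with *Gm20425*, which is annotated on the same strand, and a read that fits both genes is counted to neither. At the bottom were *Afp*, the fetal counterpart of albumin, with 3.77, 4.83 and 4.41 TPM, and the corticosteroid carrier *Serpina6* with 1.20, 1.23 and 1.70 TPM. *Alb* exceeded *Afp* by 18297 to 21236 times in TPM. The adult carrier thus stood far above the fetal one in every library.

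Apolipoproteins and lipoprotein enzymes, 17 genes that package lipid for the blood, had a median of 553 TPM. *Apoe*, a ligand for lipoprotein receptors, reached 6089, 6460.3 and 6499 TPM and *Apoa4* 4919, 5913 and 5616 TPM, next to *Apoa1*. *Apob*, the scaffold of very-low-density lipoprotein, is long and stood at 915 ± 58.0 TPM while ranking 17th in CPM. *Apoc2*, the activator of lipoprotein lipase, was lowest with 3.30, 1.42 and 1.40 TPM. That value is a lower limit, as 79.5% of its exon bases are shared with *Gm44805* on the same strand.

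Of 26 coagulation and fibrinolysis genes all were detected, with a median of 134 TPM. The fibrinogen chains, which assemble in equal numbers into one molecule, did not have equal transcript levels. *Fgb* was measured at 1047, 977 and 1050.3 TPM, *Fga* at 404, 372 and 396 TPM and *Fgg* at 388, 360.3 and 388 TPM. The ratio of *Fgb* to *Fgg* was 2.71 ± 0.00519 and that of *Fga* to *Fgg* 1.03 ± 0.0103, so these ratios varied far less than the levels themselves. *F12*, the contact factor, reached 888 ± 9.84 TPM and prothrombin, *F2*, 678 ± 29.5 TPM. Prekallikrein, *Klkb1*, was lowest with 2.37, 1.73 and 1.93 TPM, again a lower limit because 43.2% of its exon bases are shared with *Gm45753*.

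Complement and lectin genes, 20 in all, had a median of 69.8 TPM. The central component *C3* reached 1541, 1565 and 1686 TPM, highest in replicate 3, *Vtn*, an inhibitor of the lytic complex and an adhesion protein, 1168, 1265 and 1355 TPM, and the mannose-binding lectin *Mbl2* 1243, 1161 and 1251 TPM. *Cfb*, of the alternative pathway, was lowest at 4.60, 3.52 and 2.27 TPM, a lower limit with 79.5% of its exon bases shared with *Gm20547*. The 10 serpins, inhibitors of proteases, had a median of 625 TPM and all lay in the top 10% of detected genes. *Serpina3k* reached 3865 ± 227 TPM and *Serpina1e* 2370.4 ± 129.7 TPM, whereas *Serpina1a* stood at 114 ± 6.56 TPM. The *Serpina1* genes are near-identical copies, so their order is uncertain.

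Acute phase proteins, which hepatocytes make under interleukin 6 and related signals, had a median of 156 TPM over 11 genes. *Lcn2*, a binder of bacterial siderophores, led with 1689, 1696 and 1505 TPM, ahead of serum amyloid *Saa1* at 406 ± 22.3 TPM and *Crp* at 322 ± 32.9 TPM. Hepcidin, *Hamp*, the hormone that limits iron export, had 8.27, 4.22 and 2.78 TPM, highest in replicate 1. The 16 hepatokines and hormones had a median of 49.6 TPM. *Igfbp1*, a carrier of insulin-like growth factors, stood at 349.5 ± 26.0 TPM and angiotensinogen, *Agt*, at 328 ± 12.02 TPM, while *Angptl6* was lowest at 5.95 ± 0.896 TPM. *Saa1* and *Saa2* share long stretches, so both are lower limits.

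The machinery that handles this secretory load was detected in full. Signal recognition, translocon and glycosylation genes numbered 29, all detected, with a median of 66.0 TPM and *Ssr3*, a translocon-associated subunit, highest at 222 ± 7.03 TPM. *Rpn2*, of the oligosaccharyltransferase, was measured at 147 ± 5.99 TPM and *Srp14*, of the signal recognition particle, at 143 ± 6.01 TPM. *Sec61g*, a translocon subunit with 4 near-identical copies, was lowest at 0.598 ± 0.435 TPM. The 19 ER chaperones and folding enzymes had a median of 115 TPM. Among them the disulfide isomerase *P4hb* reached 933, 943 and 978 TPM, calreticulin, *Calr*, 687, 727 and 814 TPM and the ER Hsp70 gene *Hspa5* 493, 526 and 559.6 TPM. These 3 genes had their lowest value in replicate 1 and their highest in replicate 3. *Ero1lb* was the lowest of the group at 6.28 ± 0.779 TPM.

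Transport from ER to Golgi was represented by 20 detected genes with a median of 84.1 TPM, led by the COPII GTPase *Sar1b* at 363 ± 11.6 TPM, the cargo receptor *Surf4* at 257 ± 5.09 TPM and the retrieval receptor *Kdelr1* at 199 ± 7.01 TPM, with *Kdelr3* lowest at 10.7 ± 1.01 TPM. Summed TPM of plasma protein genes exceeded summed TPM of the ER targeting genes by 94.2 to 98.9 times, of the chaperones by 52.0 to 57.2 times and of the ER to Golgi genes by 100.5 to 105 times. The unfolded protein and integrated stress response genes, 14 detected of 14, had a median of 46.4 TPM. *Herpud1*, a component of ER-associated degradation, reached 464, 489.5 and 473 TPM, the transcription factor *Atf4* 466, 421 and 393 TPM and *Xbp1* 202 ± 2.51 TPM. The ER stress sensor *Ern1* was lowest at 26.2 ± 1.67 TPM.

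The metabolic groups were for the most part above the median detected gene, with single members far below their own pathway. In the urea cycle and ammonia group (11 genes, median 60.5 TPM), arginase, *Arg1*, stood at 1432, 1598 and 1553 TPM, next to *Cps1*, and glutamate dehydrogenase, *Glud1*, at 866 ± 15.6 TPM. *Otc*, which encodes the enzyme after carbamoyl phosphate, was lowest with 180, 196 and 233 counts or 6.00, 6.66 and 7.84 TPM. *Cps1* exceeded *Otc* by 203 to 228 times in TPM, so neighbouring steps of the cycle differed by more than any spread between libraries. *Ass1* and *Asl*, the next steps, were measured at 120.3 ± 4.41 and 60.5 ± 1.81 TPM, *Ass1* being a lower limit because of copies.

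Amino acid catabolism (20 genes, median 49.1 TPM) included *Fah* of tyrosine breakdown at 281 ± 5.03 TPM and the folate-linked *Ftcd* at 248 ± 0.929 TPM. Histidase, *Hal*, was lowest at 1.83, 1.71 and 1.57 TPM. Of the 20 genes, 4 were under 10 TPM, and serine dehydratase, *Sds*, had 3.00, 1.53 and 3.12 TPM.

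Glucose and glycogen genes of hepatocyte type (14 genes, median 106 TPM) were also uneven. *Ugp2*, which makes UDP-glucose for glycogen, reached 1365, 1653 and 1587 TPM. The gluconeogenic gene *Pck1* was lowest with 3.95, 2.39 and 3.87 TPM. *G6pc*, the last step of glucose release, was hardly higher, with 5.50, 3.82 and 3.19 TPM from 94, 64 and 54 counts. Glycolytic genes of general type (13 genes, median 63.9 TPM) were led by *Tpi1* at 1190.0 ± 47.7 TPM, *Ldha* at 941 ± 98.3 TPM and *Aldoa* at 543 ± 35.3 TPM, and hexokinase 1, *Hk1*, was lowest at 2.11 ± 0.251 TPM. Of the pyruvate kinases, the liver form *Pklr* exceeded the general form *Pkm* by 2.24 ± 0.154 times. *Pkm* and *Ldha* have copies elsewhere in the genome, so their own levels are lower limits and the ratio to *Pkm* an upper one. *Eno1* and *Pgk1*, with 81.5% and 68.8% of their transcripts covered by copies, are lower limits too. The median of the general glycolytic genes may therefore be underestimated.

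**Figure D3:**
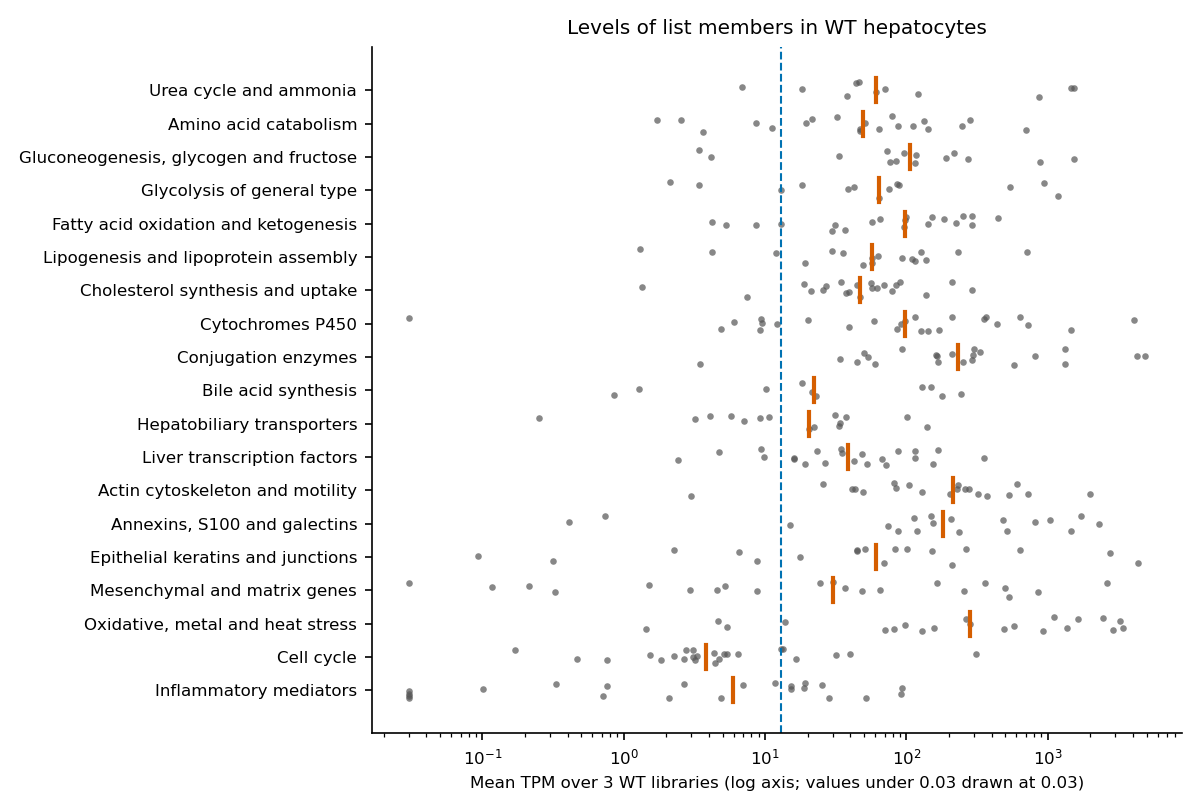
Mean TPM (log axis) of each listed gene, 1 point per gene with points offset vertically for sight, in 19 gene groups; the orange bar is the group median and the dashed line the median of all detected genes at 12.999 TPM. Cell cycle genes and inflammatory mediators have medians of 3.82 and 5.90 TPM, left of the line, and the other groups lie right of it.

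Fatty acid oxidation and ketogenesis (20 genes, all detected, median 97.3 TPM) included the thiolase *Acaa2* at 444 ± 17.4 TPM and the dehydrogenase *Acadvl* at 289 ± 16.5 TPM. *Bdh1*, the last step to the ketone body hydroxybutyrate, was lowest at 4.11, 4.15 and 4.29 TPM. Lipogenesis and lipoprotein assembly (17 genes, median 57.5 TPM) were led by the desaturase *Scd1* at 689, 744 and 713 TPM, *Gpam* at 230.2 ± 11.6 TPM and *Dgat2* at 138 ± 5.55 TPM, which build glycerolipids, with *Pnpla3* lowest at 1.29 ± 0.412 TPM. Cholesterol synthesis and uptake (21 genes, median 46.7 TPM) included *Hmgcs1*, the synthase before the reductase step, at 197, 191 and 241 TPM and the lanosterol demethylase *Cyp51* at 132, 127 and 151 TPM. In both of these replicate 3 was highest. *Idi1* was the lowest of the group at 1.35 ± 0.402 TPM.

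Cytochromes P450 and their reductase held 1.12% ± 0.0385 of counts, of which *Cyp3a11* held 43.8% of the summed TPM of the group. *Cyp3a11*, a main drug-metabolising form, reached 4232, 3837 and 4070.0 TPM and *Cyp2b10*, a target of the nuclear receptor CAR, 1520.2, 1455 and 1419 TPM. *Cyp2c70*, of bile acid hydroxylation, stood at 724 ± 11.6 TPM. *Cyp2b9* had 0 counts in all 3 libraries, which at this depth allows up to 0.145 CPM. Related forms were spread widely, with *Cyp2c29* at 633 ± 49.4 TPM and *Cyp2c37* at 9.20 ± 1.33 TPM. The level of *Cyp2c37* is a lower limit, as 82.9% of its transcript is covered by copies such as *Cyp2c54*. Conjugation enzymes had the highest median of the metabolic groups, 231 TPM over 22 genes, with the glutathione transferases *Gstm3* at 4887 ± 140.2 TPM and *Gstm1* at 4286 ± 42.8 TPM at the top, and the sulfotransferase *Sult2a8* at 3.48 ± 0.727 TPM at the bottom. Transcripts of *Gstm1* have a copy over 51.0% of their length, so its level is a lower limit.

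Bile acid synthesis (10 genes) and hepatobiliary transport (15 genes) had the lowest medians of the metabolic and transport groups, 22.1 and 20.5 TPM, still above that of all detected genes. *Cyp27a1*, which opens the acidic route and is mitochondrial, stood at 240.4, 246 and 238 TPM, and *Acox2* and *Baat*, of side-chain shortening and conjugation, at 179 ± 2.48 and 149.7 ± 8.42 TPM. *Cyp7a1*, the rate-limiting enzyme of the classic route, had 39, 32 and 41 counts or 1.32, 1.10 and 1.40 TPM, and *Cyp8b1*, which is needed for cholic acid, 1.23, 0.369 and 0.951 TPM. *Cyp27a1* exceeded *Cyp7a1* by 170 to 223 times. Of the transporters, the basolateral exporter *Abcc3* reached 139 ± 1.58 TPM, the canalicular exporter *Abcc2* 101 ± 3.92 TPM and *Abcg2* 37.6 ± 1.35 TPM. The bile salt importer *Slc10a1* and exporter *Abcb11* were similar, at 20.5 ± 1.13 and 22.2 ± 2.55 TPM. The anion transporter *Slc22a7* was not detected, with 1, 4 and 6 counts.

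Genes that are known to be zoned in the intact lobule were set side by side by their usual zone. The 15 periportal genes had a median of 39.3 TPM and were all detected, with the lipid droplet enzyme *Hsd17b13* at 1823 ± 99.6 TPM above *Arg1* and *Cps1*. The 15 pericentral genes had a median of 9.20 TPM, below that of all detected genes, and 12 were detected. The middle gene of that list is *Cyp2c37*, whose level is a lower limit. *Cyp2e1* led them at 115, 142 and 122 TPM, with *Cyp1a2* at 85.4 ± 2.24 TPM and *Gulo*, of vitamin C synthesis, at 77.4 ± 8.57 TPM. Targets of Wnt signalling at the bottom of the list were *Axin2* at 0.181 ± 0.0899 TPM and *Lgr5* with 13, 4 and 1 counts. *Rhbg* and *Slc22a3* were not detected either, but 61.4% of the exon bases of *Rhbg* are shared with *Gm38392* on the same strand, so its counts are a lower limit. The lists were not made to match in level, and no test between them was run.

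All 22 liver transcription factor genes were detected, with a median of 38.8 TPM. *Hnf4a*, a nuclear receptor required for hepatocyte identity, was highest with 345, 355 and 366 TPM, followed by *Cebpb* at 168 ± 6.24 TPM and the bile acid receptor *Nr1h4* at 154 ± 7.98 TPM. *Cebpa* stood at 71.2 ± 1.40 TPM, under *Cebpb* in every library. The lowest was *Nr1i3*, which encodes CAR, with 2.24, 2.48 and 2.52 TPM, against 116 ± 8.28 TPM for the related xenobiotic receptor *Nr1i2*. Transcripts of *Cyp2b10*, known as a CAR target, were abundant in the same libraries.

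The cytoskeletal groups stood high. Actin cytoskeleton and motility genes had a median of 214 TPM over 20 genes, and 13 were in the top 10% of detected genes. *Actb* reached 2024, 2025 and 1881 TPM, *Pfn1*, which loads actin monomers, 729.9 ± 36.7 TPM and *Cfl1*, which severs filaments, 601 ± 31.9 TPM. *Actg1* was listed lowest at 3.00 ± 0.429 TPM, but 57.8% of its transcript is covered by copies and the value is a lower limit. The 9 tubulins had a median of 183 TPM, led by *Tubb2a* at 535, 482 and 484 TPM, *Tubb5* at 495, 483 and 450.2 TPM and *Tubb4b* at 359, 341 and 323 TPM. *Tuba1b*, with 91.1% of its transcript covered by copies, was lowest at 6.06 ± 0.572 TPM. Copies also cover 83.8% of the transcripts of *Tubb2a* and *Tubb4b*, so both levels are lower limits. The same holds for *Tuba1a*, *Tuba1c* and *Tubb2b*, with 75.3%, 68.1% and 61.9% covered, and the tubulin median may be underestimated. Annexins, S100 proteins and galectins, calcium and sugar binders, had a median of 180 TPM over 18 genes, with *Anxa5* at 2290.3, 2256 and 2339.9 TPM, *S100a11* at 1721 ± 137 TPM and *S100a10* at 1455 ± 106 TPM. *Anxa1* was measured at 0.408 ± 0.169 TPM. *S100a4*, a marker of fibroblasts and leukocytes, had 4, 2 and 3 counts, a lower limit with 51.7% of its exon bases shared with *Gm42674*.

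Epithelial keratins and junction genes (18 genes, median 60.4 TPM) were led by *Krt18* and *Krt8*, followed by the tight-junction gene *Cldn3* at 640.1 ± 44.2 TPM. The hepatocyte connexin *Gjb1* was measured at 211 ± 12.6 TPM, against 0.0929 ± 0.0433 TPM for *Gja1*, the lowest of the group. E-cadherin, *Cdh1*, exceeded N-cadherin, *Cdh2*, by 1.55 ± 0.114 times. Of 21 mesenchymal and matrix genes 18 were detected, with a median of 30.2 TPM and a wide range. Fibronectin, *Fn1*, which hepatocytes also secrete into plasma, reached 2466, 2719.6 and 2750.2 TPM. The matricellular gene *Ccn2* reached 884, 858 and 824 TPM. Among the transcription factors of epithelial to mesenchymal transition, *Snai1* at 3, 6 and 2 counts and *Twist1* at 0, 2 and 2 counts were not detected. *Zeb2* was low at 0.213 ± 0.0942 TPM, whereas *Snai2* and *Zeb1* were detected at 1 TPM or more. *Mmp2* had 0 counts. *Vim*, *Fn1* and *Ccn2* were thus abundant in libraries with 0 to 6 counts of *Snai1*, *Twist1* and *Mmp2*, but with *Snai2* and *Zeb1* detected.

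Cell cycle genes had the lowest median of the groups, 3.82 TPM over 24 genes. *Cdkn1a*, the inhibitor p21, was the exception at 329, 312 and 297 TPM and held 64.8% of the summed TPM of the group, followed by the inhibitor *Cdkn1b* at 40.1 ± 4.47 TPM and the ribonucleotide reductase subunit *Rrm2* at 27.5, 35.0 and 32.3 TPM. The proliferation gene *Mki67* stood at 3.29 ± 0.365 TPM, 83.4 to 109 times under *Cdkn1a*, and cyclin B1, *Ccnb1*, was not detected, with 2, 9 and 4 counts. Inflammatory mediators had a median of 5.90 TPM over 22 genes, of which 17 were detected. *Ccl2*, which draws monocytes, led with 115, 86.9 and 74.4 TPM, highest in replicate 1. The receptor subunit *Il6st* stood at 91.8 ± 3.97 TPM and *Nfkbia*, an inhibitor and target of NF-kB, at 51.4 ± 5.23 TPM. *Il6*, *Tnf*, *Il1b* and *Cxcl5* had 0 counts in every library, and *Ccl5* had 0, 2 and 0.

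Stress genes had the highest median outside the secreted proteins, 283 TPM over 21 genes, and 7 exceeded 1000 TPM. *Gclc*, the catalytic subunit for glutathione synthesis, reached 3255, 3461 and 3507 TPM. The metallothioneins, which bind zinc and copper, reached 3309.8, 3378 and 3014 TPM for *Mt2* and 3099, 2989 and 2641 TPM for *Mt1*. *Gclm*, the partner subunit of *Gclc*, was measured at 128 ± 6.53 TPM and the haem oxygenase gene *Hmox1* at 579 ± 61.7 TPM. *Nqo1*, known like *Gclc* as a target of the antioxidant factor NRF2, stood at 13.8 ± 2.45 TPM. The heat shock gene *Hspa1a* was lowest at 1.44 ± 0.183 TPM, a lower limit because *Hspa1b* is a near-identical copy.

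Most markers of other liver cells lay under 10 TPM, though many were detected. Of 14 Kupffer cell and macrophage markers 5 were detected, and the summed level was 119, 148 and 128 CPM, nearly all of it from the lysosomal gene *Cd68* at 238, 313 and 271 TPM. The Kupffer cell genes *Timd4* and *Cd5l* had 0 counts, *Clec4f* had 4, 0 and 0, and *Ptprc*, expressed by all leukocytes, was near 0. Of 14 endothelial markers 13 were detected at a summed 48.4, 57.0 and 45.3 CPM, with the scavenger receptor *Stab2* highest at 8.91 ± 1.93 TPM, *Kdr* at 0.184 ± 0.0438 TPM and *Clec4g* at 0. Of 12 stellate cell and fibroblast markers 8 were detected at 74.6, 94.7 and 78.0 CPM, mostly *Reln* at 9.36 ± 1.42 TPM, with *Col1a1* at 0.195 ± 0.0776 TPM and *Pdgfrb* and *Des* not detected. Of 8 cholangiocyte markers 7 were detected at a summed 162, 167 and 162 CPM. They were led by *Spp1* at 163 ± 10.9 TPM and *Sox9* at 21.2 ± 1.55 TPM. *Krt19* stood at 8.72 ± 0.437 TPM, *Epcam* at 0.410 ± 0.316 TPM and *Cftr* at 0.

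None of 8 lymphocyte and none of 6 neutrophil markers was detected, and the 4 haemoglobin genes had 0 counts, although haemoglobin genes have copies. The neutrophil gene *Elane* had 1 count in each of 2 libraries. *Alas2*, the haem synthesis gene of red cell precursors, was measured at 5.72 ± 0.635 TPM. In bulk RNA, few cells of a type and little RNA per cell cannot be told apart. The Y-linked genes *Eif2s3y*, *Ddx3y*, *Uty* and *Kdm5d* were detected in all 3 libraries, at 69.0 ± 4.67 TPM for *Eif2s3y*, and *Xist*, which is transcribed from the inactive X chromosome, had 0, 8 and 4 counts. The labels give no sex.

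**Figure D4:**
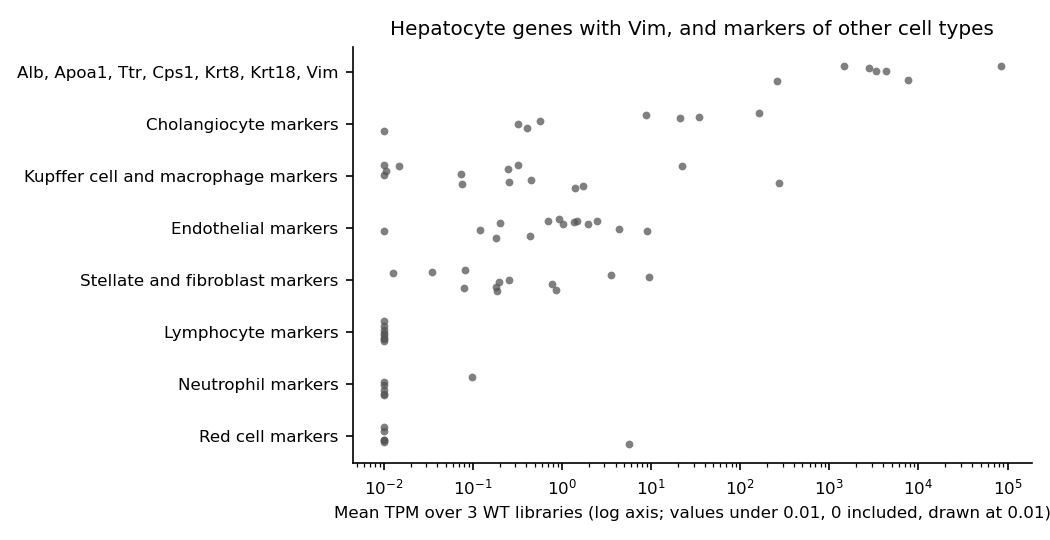
Mean TPM (log axis) of the 7 genes checked first and of markers of other cell types, 1 point per gene, with 0 drawn at 0.01 TPM. The 7 genes lie at 257 TPM or higher, and most markers of other cells lie under 10 TPM, with *Cd68* and *Spp1* the farthest above.

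The libraries were close to each other. Pearson correlations of log2 CPM across 12101 genes were 0.993 for replicates 1 and 2, 0.993 for 1 and 3, and 0.995 for 2 and 3, a description over genes, which are not independent. The part of the spread that counting noise does not account for, estimated with edgeR as a common biological coefficient of variation, was 6.16%. It was 4.55% without replicate 1, and 7.22% and 6.53% without replicates 2 and 3. Chi-square per degree of freedom between pairs ran from 4.05 to 7.90, so no pair was one library deposited again. Among 8467 genes with a mean of at least 10 CPM the median coefficient of variation was 5.24%, 43 genes (0.508%) had a highest value at least 1.5 times the lowest, and 3 reached 2 times. Over the wider set of 12101 genes used for the correlations, which reaches below 10 CPM, 698 genes differed by over 1.5-fold between replicates 1 and 2, 669 between 1 and 3 and 445 between 2 and 3.

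Genes were ordered by the edgeR estimate for single genes, which is pulled toward the value usual at their level. This estimate was largest for the predicted gene *Gm23935*, with 12.3, 35.5 and 35.0 CPM. *Mir6236*, a microRNA entry, came next with 78.6, 131 and 194 CPM, and *AI413582* and *CT010467.1* followed. With predicted and clone names left out, *Mir6236* was followed by the DNA repair gene *Rad18* with 12.8, 10.3 and 7.70 CPM, *Mum1l1* with 14.8, 8.70 and 10.6 CPM and the ubiquitous glucose-6-phosphatase gene *G6pc3* with 14.6, 9.08 and 9.66 CPM. *Ccdc163*, *Msantd2*, *Rusc1* and the centriole gene *Cenpj* were highest in replicate 1 as well, whereas *Frmd6* was highest in replicate 3. The 8 genes from *Rad18* to *Frmd6* had means between 10.1 and 11.4 CPM. By the coefficient of variation of CPM the order differed, with 24.7% for *Rad18* and 31.6% for *Tpt1*. The lowest estimates were those of *Hcfc1* with 209, 206 and 206 CPM, *Celf1* with 207, 205 and 206 CPM, *Stra6l*, the complement protease gene *Masp1* and *Gspt1*. By the coefficient of variation of CPM other genes were steadier, such as *Cat* at 0.516% against 0.872% for *Hcfc1*. Among genes over 100 CPM, picked after their values were seen, a ribosomal RNA entry, *CT010467.1*, had 1458, 2462 and 3161 CPM, *Tpt1* 209, 126 and 125 CPM and the ribosomal stalk gene *Rplp1* 1273, 875 and 757 CPM. *Mir6236* and *CT010467.1* had the same order of libraries, and the reverse of that of *Rplp1*, whose counts are lower limits because of copies.

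Small deviations ran in the same direction within some groups, on CPM scaled by TMM (trimmed mean of M values). Of 19 ER chaperones, 17 were highest in replicate 3 and 14 lowest in replicate 1, with medians 0.09 and -0.08 from the mean of the libraries on the log2 scale. Among all 8467 genes, 2995, 2629 and 2843 were highest in replicates 1, 2 and 3, and 3274, 2417 and 2776 were lowest in them. Ribosomal protein genes showed the opposite order, with 30 of 48 highest in replicate 1 and 35 of 48 lowest in replicate 3. Tubulins were highest in replicate 1 for 7 of 8 genes, glycolytic genes in replicate 2 for 9 of 11, and cholesterol genes in replicate 3 for 13 of 20. On plain CPM, the counts were 15 of 19 and 13 of 19 for chaperones, 33 and 38 of 48 for ribosomal protein genes, 8 of 8 for tubulins, and the same for glycolytic and cholesterol genes. On that scale all genes tilted toward replicate 1, with 3569 of the 8467 highest in replicate 1 and 2435 in replicate 3, and 2695 lowest in replicate 1 and 3199 in replicate 3. That tilt has the direction of the ribosomal and tubulin counts. The cause of these shared deviations was not tested.

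**Figure D5:**
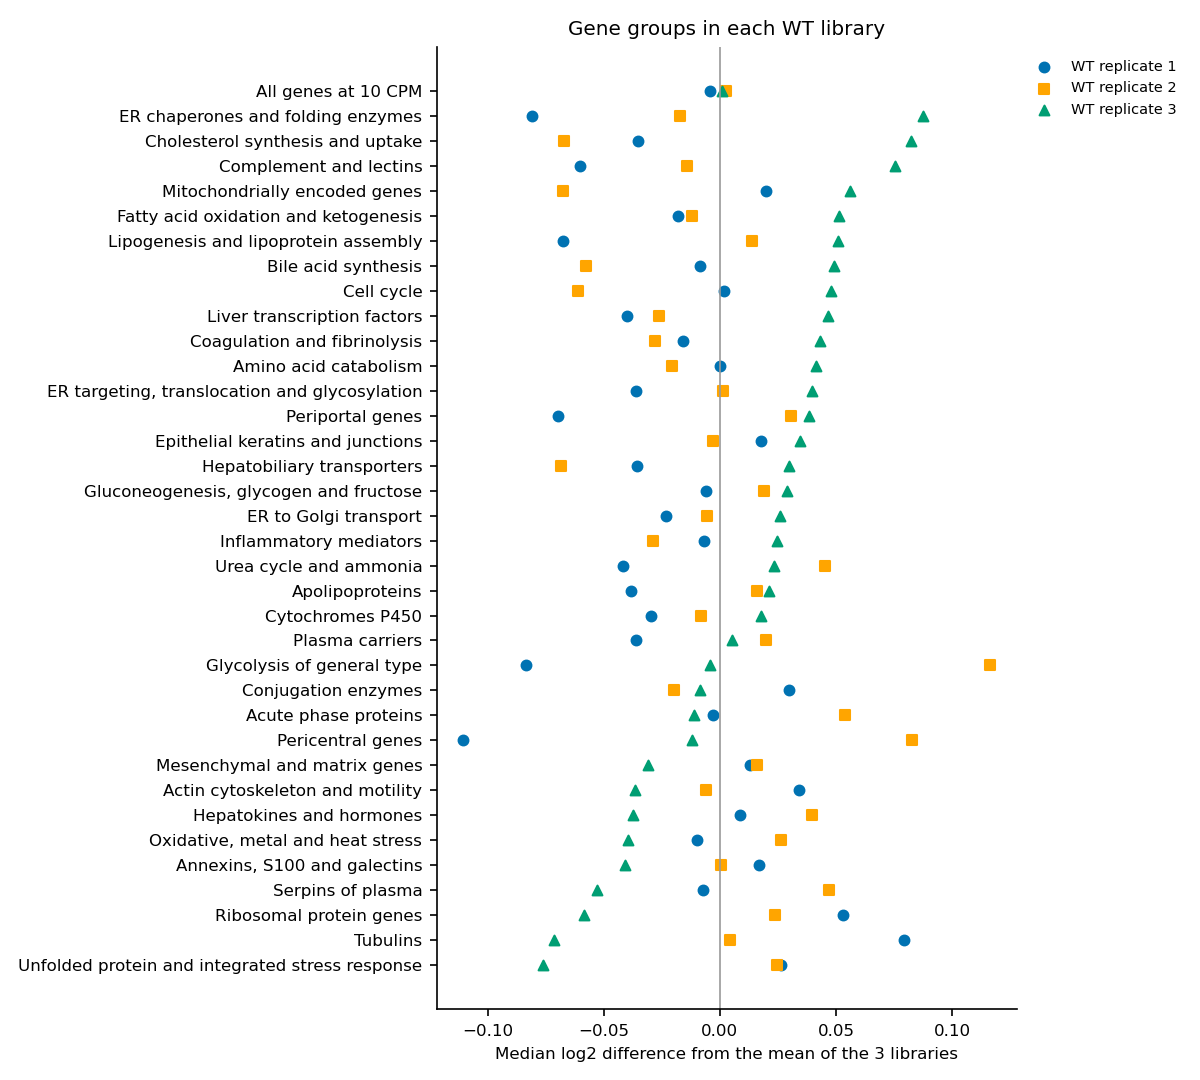
Median log2 difference of each gene group from the mean of the 3 WT libraries (TMM-scaled CPM, genes with at least 10 CPM), 1 point per library, groups ordered by replicate 3. All medians lie between -0.11 and 0.12, with ER chaperones at one end, the unfolded protein response genes and tubulins at the other, and all genes together near 0.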

How the data were processed

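Total RNA of hepatocytes was sequenced by the authors from TruSeq RNA libraries on a HiSeq3000, per the labels. The deposited values are raw read counts per Ensembl gene in the layout of the STAR aligner, 1 table per library, with unstranded, forward-strand and reverse-strand columns. Trim Galore 0.6.6, STAR 2.7.9a, edgeR 3.36.0 and the build mm10 (GRCm38) are named in the submitters' processing notes. The annotation release is not given in the sources used here. Multimapping (18.0% to 18.4%), unmapped (4.37% to 4.59%), ambiguous (0.891% to 0.926%) and no-feature reads (5.18% to 5.55%) are listed apart from genes and were left out.

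Reverse-strand counts were used. Of 55487 identifiers, 55227 matched GENCODE M21 (GRCm38), which gave names, positions and merged exon lengths for TPM. CPM used library totals. Spread was estimated with edgeR 4.0.16 (R 4.3.3) after TMM scaling and the default filterByExpr limits (a count of 10, a total of 15), with a prior count of 2 for log2 values. In simulated counts most genes had a true coefficient of variation of 6%, and a planted set had 4 times that. The common estimate over all 12101 genes, planted ones included, was 6.75%. Planted genes with at least 10 CPM had a median estimate of 8.78%, so values of single genes were pulled toward those of other genes. Coefficients of variation of CPM are therefore given as well. BLAST 2.17.0 searched the longest transcript of every gene for copies at 95% identity or more. Of 582 list genes, 48 had 50% or more of the transcript covered by copies, and 44 shared exon bases with another gene on the same strand. Promoter windows are from RefSeq (GRCm38.p6).

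One group was described, with no test between groups. The 33 gene lists and the cell markers were chosen with earlier results of these data known. Genes were named by rule: the 20 highest in CPM and in TPM and the cell markers. The rule also took the 3 highest, the lowest and any undetected member of each list. It further took the 10 most and 5 least variable genes by the edgeR estimate with at least 10 CPM, skipping predicted and clone names. Some genes chosen by this rule are not reported here. Other genes were named after their values were seen. Alternatives were unstranded counts, other detection limits, longest-transcript lengths, mitochondrial genes left out, DESeq2 1.42.0 size factors and each library left out. A planned description of signal peptides was not run, as no protein sequences were used here.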

Additional observations from a re-analysis of the deposited data

How the results depend on the processing

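No paired analysis was possible because only 1 group was described and no test was run. With mitochondrially encoded genes left out, the 10 most abundant genes held 14.9% of counts in place of 16.7%, and the plasma protein genes 18.6% in place of 17.3%. The plasma protein share was 17.7% with the major urinary protein genes added, and 23.0% of TPM. Leaving out 1 library at a time gave 14180 to 14342 detected genes, against 13816. It gave a share of the top 10 genes of 16.7% to 16.9%, a plasma protein share of 17.2% to 17.5%, 552 to 553 list genes at 1 TPM or more, and a common biological coefficient of variation of 4.55% (without replicate 1) to 7.22% (without replicate 2). Detected genes numbered 11296 when 1 CPM was required in every library, 12142 with 10 counts and 14243 with unstranded counts. With TMM-scaled library sizes all 33 list medians moved by less than 1 SD of the libraries, with 1 library left out 93 of 99 did, and with longest-transcript lengths 13 of 33 did, the largest ratio being 1.23. Ranks of single genes depended on length: with CPM in place of TPM, 17 of 27 changed by over 1.5 times. Plain CPM, tried after seeing the data, changed the sign of 12 of 99 list deviations between libraries. A gene with 0 counts in every library is limited to 0.145 CPM by depth. Genes with copies or overlaps are limited by counting, not depth.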

Other observations

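Genes with 1 or 2 counts were unevenly spread, with 2034 in replicate 1, 2830 in replicate 2 and 3162 in replicate 3, while genes with at least 3 counts numbered 15378, 15351 and 15413. Genes seen in a single library numbered 852, 1206 and 1465 in the same order. The libraries therefore differed in how many genes had any count, from 17412 to 18575, almost only among genes at the floor. Long intergenic non-coding RNA genes held 0.238% ± 0.0117 of counts and pseudogenes 0.0938% ± 0.00285 (SD, n = 3), against 92.4% ± 0.245 for protein-coding genes of the nucleus.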
